A study of Mus musculus with 12 samples.

Results

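The insulin genes Ins1 and Ins2 and the amylin gene Iapp are 3 of the 12643 genes measured in 12 RNA libraries of MIN6, a cell line derived from an insulinoma (a beta cell tumour) of the mouse. They were taken by symbol, each represented by its RefSeq transcript with the highest total count, and all 3 were measured in every library. Cells at passage 29 received an siRNA against Pdx1 or a control siRNA called NT by nucleofection and were harvested 72 h later. The labels name no other allele, transgene or agent. RNA was prepared by TRAP, in which ribosomes are captured through a tagged ribosomal protein with the mRNA they carry. The captured fraction is called IP RNA and the unselected fraction total RNA, so that there are 4 groups of 3 libraries: NT total, Pdx1 total, NT IP and Pdx1 IP. Neither the tagged protein nor the promoter driving it is given in the sources used here. Every library comes from 1 cell line. Nothing in the labels ties the replicates to separate cultures, so p-values measure the spread between these libraries only, which may be technical.

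Insulin lowers blood glucose and is made almost only by beta cells. Mice carry a pair of insulin genes, whose products are both translated as preproinsulin, moved into the endoplasmic reticulum, folded, and cut to insulin in secretory granules. Iapp encodes the precursor of amylin (islet amyloid polypeptide), a peptide that slows gastric emptying, is stored in the same granules and is released together with insulin. Pdx1 is a homeodomain protein that binds sites with a TAAT core. It is a known activator of the insulin genes and of Iapp, acting beside Mafa and Neurod1.

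In the mm10 genome (GRCm38), Ins1 (NM_008386) lies on the plus strand of chromosome 19 from base 52264297 to 52265015, and its transcript has 2 exons and 601 bases. Ins2 (NM_001185084) lies on the minus strand of chromosome 7 from 142678656 to 142679726, and its transcript has 2 exons and 552 bases. Iapp (NM_010491) lies on the plus strand of chromosome 6 from 142298425 to 142303820, within an intron of Slco1a5 on the opposite strand, with 3 exons and 696 transcript bases. No exon base of the 3 transcripts is shared with an exon of another annotated gene.

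The insulin mRNAs resemble each other, which bears on how their reads can be assigned. Their coding regions of 327 bases (Ins1) and 333 bases (Ins2) were identical at 302 aligned bases, differed at 25 and had 6 bases against a gap, an identity of 90.7%. Coding bases 1 to 99 and 100 to 198 are shown from GENCODE M21 transcripts, with capitals at the bases that differ, to contrast a stretch with many differences with one that has few.
Ins1, bases 1 to 99: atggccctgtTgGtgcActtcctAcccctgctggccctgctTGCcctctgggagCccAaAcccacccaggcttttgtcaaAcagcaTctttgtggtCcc
Ins2, bases 1 to 99: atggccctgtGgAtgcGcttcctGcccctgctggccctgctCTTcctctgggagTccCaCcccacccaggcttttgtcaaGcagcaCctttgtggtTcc
Ins1, bases 100 to 198: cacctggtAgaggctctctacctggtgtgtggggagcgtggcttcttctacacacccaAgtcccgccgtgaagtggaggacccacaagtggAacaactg
Ins2, bases 100 to 198: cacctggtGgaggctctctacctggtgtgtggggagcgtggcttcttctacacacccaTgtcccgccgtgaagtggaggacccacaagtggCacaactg
The former stretch has 13 differing bases and the latter 3. Of all windows of 25 transcript bases, 11.3% in Ins1 and 12.3% in Ins2 occurred without mismatch in the other insulin gene. For windows of 50 bases the shares were 1.27% and 1.39%. No window of Iapp of 25 bases occurred in another gene, and the windows shared by the insulin genes occurred in no gene but this pair. Neither the read length nor the treatment of reads with several matches is given in the sources used here. Part of the insulin counts could therefore belong to the partner gene, and the size of that part was not measured. Ins2 had more counts than Ins1 in every library, so the same number of misassigned reads would be a larger part of the Ins1 count.

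Since the depleted factor binds TAAT cores, the 250 bases before the transcription start of Ins1 (chr19:52264047-52264296, plus strand) and Iapp (chr6:142298175-142298424, plus strand) are shown from RefSeq on GRCm38.p6. Promoters of 2 of the 3 genes were found in that table. Capitals mark TAAT on either strand, including overlapping matches.
Ins1 promoter: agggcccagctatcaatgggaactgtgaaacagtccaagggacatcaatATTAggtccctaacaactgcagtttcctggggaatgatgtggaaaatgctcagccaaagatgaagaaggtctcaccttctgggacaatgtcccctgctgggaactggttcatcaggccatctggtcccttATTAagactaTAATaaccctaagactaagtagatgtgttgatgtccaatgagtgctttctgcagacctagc
Iapp promoter: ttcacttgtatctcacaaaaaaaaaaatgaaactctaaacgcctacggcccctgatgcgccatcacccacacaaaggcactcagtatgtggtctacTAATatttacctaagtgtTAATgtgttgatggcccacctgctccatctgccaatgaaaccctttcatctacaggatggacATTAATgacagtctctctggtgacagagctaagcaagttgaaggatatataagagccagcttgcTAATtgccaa
The Ins1 promoter held 3 matches and the Iapp promoter 5. Among 32841 promoters of the same length, 54.9% had at least 1 TAAT, 17.3% had 3 or more and 5.55% had 5 or more. The E-box CATCTG occurred once in each promoter and in 14.5% of all promoters, on either strand. The longer core CTAATG, the partial MARE TGCTGA and the CRE TGACGTCA were not matched in either promoter, against 6.36%, 16.1% and 1.55% of all promoters. These are letter matches in a window, not measured binding sites.

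Libraries held 29430690 to 45806807 counts over all genes. The siRNA target itself was lower in every Pdx1 siRNA library: Pdx1 was at 110 to 123 CPM (the count relative to the TMM-scaled library size) in NT total and 47.6 to 57.4 CPM in Pdx1 total. In IP RNA it was at 104 to 115 CPM with NT siRNA, against 39.2 to 50.6 CPM with Pdx1 siRNA. The log2 fold changes were −1.20 (SE 0.10) and −1.27 (SE 0.10). All 10 beta cell markers listed for the check were measured, but they include the 3 hormone genes and Pdx1. The other 6 (Mafa, Nkx6-1, Slc2a2, Slc30a8, G6pc2 and Ucn3) were above 0 in every library. Their sum, mostly G6pc2, was 3530 to 3645 CPM in NT total and 3047 to 3535 in Pdx1 total. In IP RNA it was 3558 to 3695 with NT and 2586 to 3151 with Pdx1 siRNA. The members did not move together. In total RNA, mean CPM went from 2782 with NT to 2348 with Pdx1 siRNA for G6pc2, and from 78.0 to 40.5 for Mafa. Nkx6-1 (59.9 to 50.9) and Slc2a2 (37.7 to 30.1) were also lower, while Slc30a8 (555 to 662) and Ucn3 (81.1 to 98.3) were higher. For alpha cells, 4 markers were measured and none was at 0. Their sum, mostly Gcg, was 892 to 916 CPM in NT total, 3385 to 3867 CPM in Pdx1 total, and in IP RNA it was 1655 to 1703 with NT and 5847 to 6626 with Pdx1 siRNA. Ppy, which marks pancreatic polypeptide cells, was at 0.40 to 0.69 CPM in NT total and 1.96 to 2.91 CPM in Pdx1 total. Markers of delta, epsilon, acinar, duct, immune, endothelial and stromal cells are not analysed here, since transcripts below a minimum count are not listed. One split of the libraries touches IP results: Rpl32l, a gene model with near-identical copies, had 22 to 37 counts in NT IP replicate 3 and in the 3 Pdx1 IP libraries, and 699 to 1726 counts in the other 8.

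The hormone genes filled a large part of every library. Ins1, Ins2 and Iapp together took 13.1% ± 0.682 of the counts in NT total, 9.65% ± 0.669 in Pdx1 total, 21.5% ± 1.53 in NT IP and 16.8% ± 0.869 in Pdx1 IP (SD, n = 3 each). Ins2 had the highest count of all genes in all 12 libraries. In the 6 NT libraries Iapp came 2nd and Ins1 3rd. With Pdx1 siRNA, Iapp was 3rd and Ins1 4th in the IP libraries, behind Ttr as well. In the Pdx1 total libraries Iapp was 3rd or 5th and Ins1 was 7th, behind Ttr, Chga, Chgb and Cpe, genes named here after their values were seen.

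**Figure D1:**
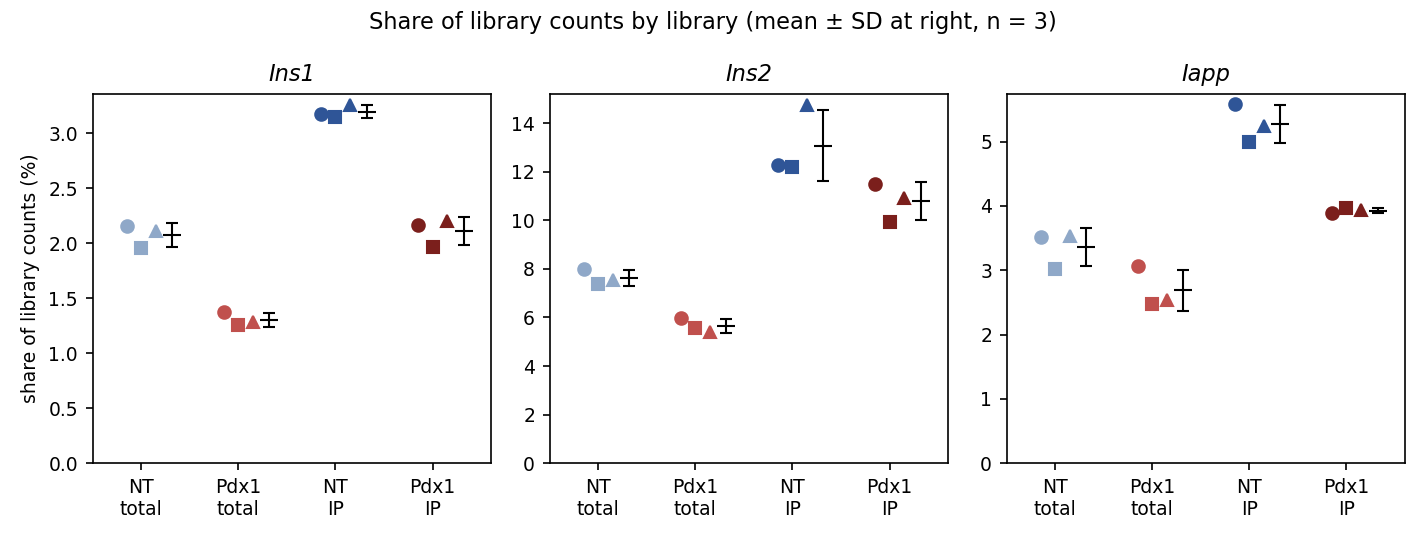
Share of library counts (%, linear axis from 0) of Ins1, Ins2 and Iapp in each of the 12 libraries; circles, squares and triangles are replicates 1, 2 and 3, and bars give mean ± SD (n = 3). The Pdx1 siRNA libraries lie below the NT libraries of the same RNA fraction for every gene except Iapp in total RNA, where Pdx1 total replicate 1 (3.06%) lies above NT total replicate 2 (3.01%).

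Ins1 took 2.16%, 1.96% and 2.11% of the counts in the NT total libraries and 1.38%, 1.26% and 1.28% in the Pdx1 total libraries. In IP RNA its share was 3.18%, 3.15% and 3.26% with NT siRNA, against 2.16%, 1.97% and 2.20% with Pdx1 siRNA. The groups did not overlap in either fraction, and the mean share with Pdx1 siRNA was 0.629 of the NT share in total RNA and 0.660 in IP RNA. Ins2 took 8.01%, 7.37% and 7.54% in NT total and 5.98%, 5.58% and 5.40% in Pdx1 total. Its IP shares were 12.3%, 12.2% and 14.8% with NT siRNA, against 11.5%, 9.94% and 10.9% with Pdx1 siRNA. Here too the siRNA groups were separate, at ratios of 0.740 and 0.825, and NT IP replicate 3 stood above the other NT IP libraries. Iapp took 3.52%, 3.01% and 3.54% in NT total and 3.06%, 2.48% and 2.53% in Pdx1 total. Its IP shares were 5.59%, 5.0% and 5.24% with NT siRNA, against 3.89%, 3.96% and 3.93% with Pdx1 siRNA. The total libraries overlapped (ratio 0.801), and the IP libraries did not (ratio 0.744).

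Each separate pair of groups gave p = 0.1 in a two-sided exact permutation test, the smallest value that 3 against 3 libraries allow, and Iapp in total RNA gave p = 0.2 in the same exact test; 12 comparisons of shares were made. Non-overlapping shares were common among all genes, at 69.8% in total RNA and 70.2% in IP RNA, so the separation by itself is near the background. Counting error was small beside this spread: Clopper-Pearson 95% intervals of a share were at most 0.0231 percentage points wide, and they cover counting error only. In bulk libraries fewer cells that express a gene and less of its RNA per cell cannot be told apart.

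**Figure D2:**
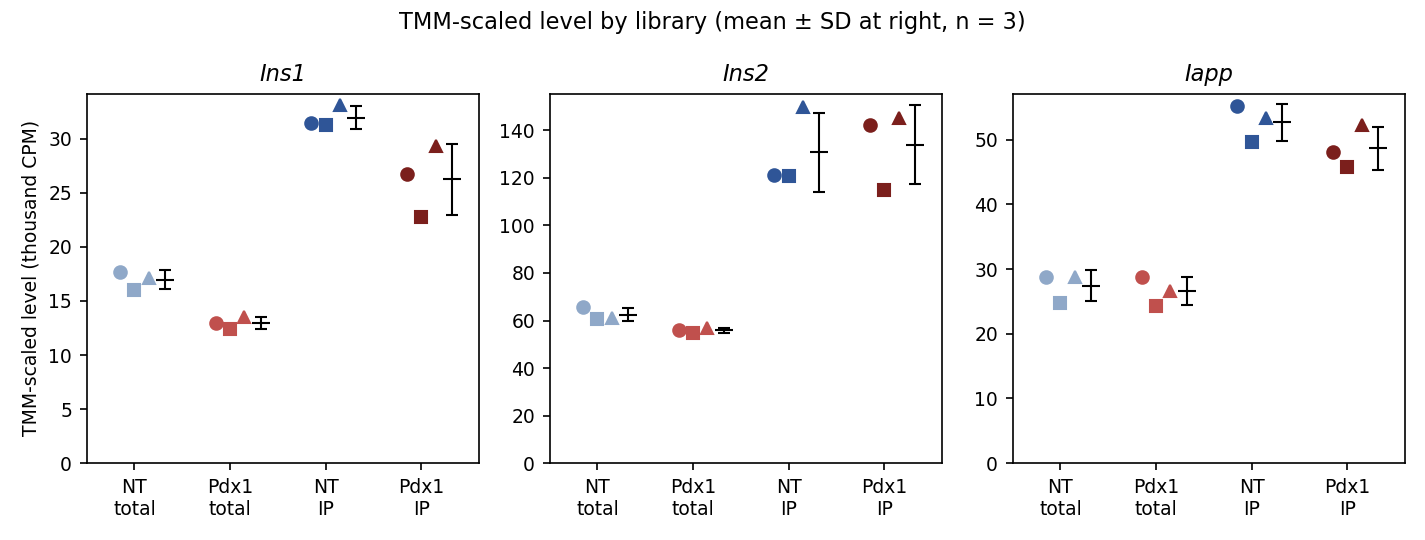
TMM-scaled level (CPM, in the multiple given on the linear axis, from 0) of Ins1, Ins2 and Iapp by library, with symbols and bars as in the plot of shares. Ins1 is lower with Pdx1 siRNA in both fractions, Ins2 in total RNA is lower by a smaller step, and Iapp and the IP values of Ins2 overlap between siRNAs.

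On the TMM-scaled level, Ins1 fell in both fractions while Ins2 and Iapp did not pass the test in either. TMM scaling assumes that most genes do not change, an assumption to be read beside the shares of genes called below. Ins1 was at 17717, 16031 and 17142 CPM in NT total and at 12931, 12368 and 13489 CPM in Pdx1 total. Every Pdx1 siRNA library lay below every NT library, a 1.31-fold lower level (log2 fold change −0.39, SE 0.11, 95% interval −0.63 to −0.15, adjusted p = 0.00901 in edgeR's quasi-likelihood test). Among all genes 53.0% were called in total RNA, 23.8% higher and 29.2% lower, and 17.3% had a lower fold change than Ins1. The call was lost without NT total replicate 1 (−0.32, adjusted p = 0.0618).

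In IP RNA, Ins1 was at 31421, 31281 and 33139 CPM with NT siRNA, against 26706, 22746 and 29279 CPM with Pdx1 siRNA. The groups again did not overlap, and Pdx1 IP replicate 2 was the lowest. Ins1 was 1.22-fold lower (log2 fold change −0.28, SE 0.11, 95% interval −0.52 to −0.04, adjusted p = 0.0415). This call sat near the threshold: leaving out each of the 12 libraries in turn lost it in 9 fits, and without Pdx1 IP replicate 2 the value was −0.19 (adjusted p = 0.155). With a term for the split at Rpl32l the value was −0.34. That term leaves NT IP replicate 3 as the only NT IP library set against Pdx1 IP. In IP RNA 59.7% of genes were called, 29.2% higher and 30.4% lower.

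Ins2 was at 65652, 60424 and 61235 CPM in NT total and at 56144, 54755 and 56878 CPM in Pdx1 total. Those libraries did not overlap, which also held for 58.8% of all genes, but the difference did not pass the test (log2 fold change −0.16, SE 0.13, 95% interval −0.45 to 0.13, adjusted p = 0.339). In IP RNA, Ins2 was at 121318, 120856 and 149861 CPM with NT siRNA, against 142079, 114783 and 145087 CPM with Pdx1 siRNA. These groups overlapped, with a log2 fold change of 0.04 (SE 0.13, 95% interval −0.25 to 0.32, adjusted p = 0.835). Libraries of 64.9% of genes did not overlap in this comparison. With a term for the split at Rpl32l, Ins2 in IP RNA was at −0.16 (SE 0.19), again against NT IP replicate 3 alone.

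Iapp was at 28843, 24680 and 28738 CPM in NT total and at 28691, 24328 and 26645 CPM in Pdx1 total, ranges that nearly coincide. Its log2 fold change was −0.05 (SE 0.12, 95% interval −0.30 to 0.21, adjusted p = 0.766), which places it near the middle of all genes (percentile 49.5). In IP RNA, Iapp was at 55239, 49604 and 53264 CPM with NT siRNA, against 48013, 45740 and 52273 CPM with Pdx1 siRNA. The log2 fold change was −0.11 (SE 0.12, 95% interval −0.37 to 0.14, adjusted p = 0.419), and the groups overlapped. The intervals of Ins2 and Iapp come from the TMM fit without a term for the split. Other than that of Ins2 in IP RNA, they still hold a fall of the size seen for Ins1 in IP RNA. With the term, the SE of Ins2 in IP RNA was wider, as given above.

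**Figure D3:**
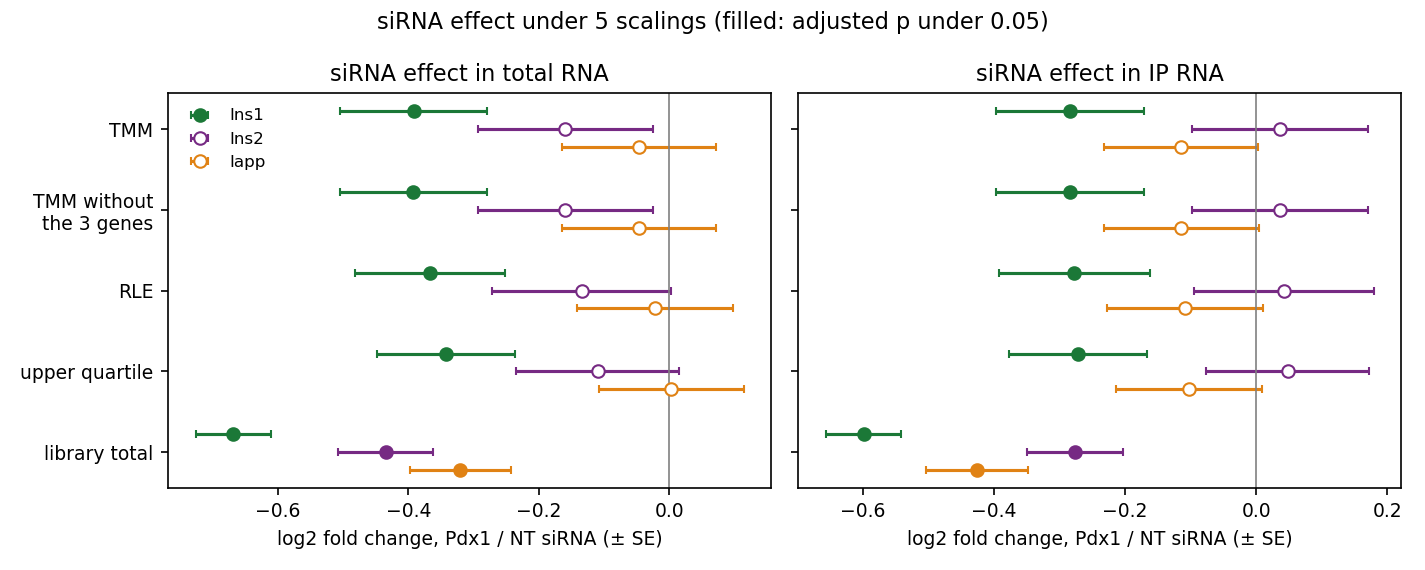
Log2 fold change (± SE) of Ins1, Ins2 and Iapp between Pdx1 and NT siRNA in total RNA (left) and IP RNA (right) under 5 scalings; filled symbols have an adjusted p under 0.05. The order of the genes within a fraction is the same in each row, while scaling to the library total moves all values lower.

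Shares and TMM levels differ because the scaling factors differed between groups, from 1.22 to 1.23 in NT total, 0.95 to 1.07 in Pdx1 total, 0.984 to 1.01 in the NT IP libraries and 0.752 to 0.866 in those of Pdx1 IP. With no scaling beyond the library total, the median gene was at a log2 fold change of −0.32 in both fractions, against −0.04 in total RNA and −0.01 in IP RNA under TMM. Ins1 was then at −0.67 in total RNA and −0.60 in IP RNA, both lower than that median. Ins2 was at −0.43 and −0.28 and Iapp at −0.32 and −0.43, all 4 with an adjusted p of 0.0036 or less, so that Ins2 in IP RNA changed sign from TMM. Relative to the median gene, the values hardly moved with the scaling. In total RNA, Ins1 was at −0.35 from that median under all 5 scalings, Ins2 at −0.12 and Iapp between −0.0052 and −0.0029. In IP RNA, Ins1 was at −0.27 from the median under TMM and at −0.28 under library-total scaling, with Ins2 at 0.05 and 0.04 and Iapp at −0.10 and −0.11. Library-total scaling also moved the split of calls, from 3010 higher and 3686 lower genes to 1485 and 6951 in total RNA, and from 3694 and 3848 to 1692 and 6762 in IP RNA. Ttr, which encodes transthyretin and had the largest count after the hormone genes in NT IP, took 1.20% to 1.48% of NT total counts and 2.86% to 3.09% of Pdx1 total counts. With TMM factors computed without the 3 hormone genes, Ins1 was again at −0.39 in total RNA and −0.28 in IP RNA.

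The siRNA effect was not shown to differ between the fractions for any of the 3 genes. The difference of log2 fold changes, IP minus total, was 0.11 for Ins1 (SE 0.16, adjusted p = 0.773), 0.19 for Ins2 (SE 0.19, adjusted p = 0.642) and −0.07 for Iapp (SE 0.17, adjusted p = 0.870). Their 95% intervals were −0.23 to 0.45, −0.21 to 0.60 and −0.42 to 0.29. This contrast had few calls in all: edgeR called 29 genes (0.229%), 2155 genes had an unadjusted p under 0.05, and DESeq2 called 327.

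Ribosome-captured RNA was enriched for all 3 hormone mRNAs. With NT siRNA, the IP level was 1.88-fold that of total RNA for Ins1, 2.09-fold for Ins2 and 1.92-fold for Iapp. The log2 fold changes were 0.91 (SE 0.11, adjusted p = 4.5e-06), 1.07 (SE 0.14, adjusted p = 5.6e-06) and 0.94 (SE 0.12, adjusted p = 5.1e-06). They exceeded those of 96.4%, 98.6% and 97.0% of genes, while 69.7% of genes were called in this contrast, 33.8% higher and 35.9% lower. With Pdx1 siRNA the enrichment was 2.03-fold for Ins1, 2.40-fold for Ins2 and 1.83-fold for Iapp. The log2 fold changes were 1.02, 1.26 and 0.87, with edgeR adjusted p-values of 9.6e-07, 6.8e-07 and 7.5e-06, at percentiles 93.6, 97.6 and 89.8. In that contrast 75.1% of genes were called, 36.3% higher and 38.7% lower.

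Every IP library lay above every total library of the same siRNA for each hormone gene. On the TMM level such a separation held for 77.5% of genes with NT siRNA, against 73.5% with Pdx1 siRNA, and in shares for 78.0% and 70.1%. In shares of counts, IP over total was 1.54 for Ins1, 1.71 for Ins2 and 1.57 for Iapp with NT siRNA. The same ratios were 1.62, 1.91 and 1.46 with Pdx1 siRNA. Under library-total scaling, 2006 genes were higher and 6588 lower with NT siRNA, against 4273 and 4537 under TMM, and 2567 and 6847 against 4593 and 4897 with Pdx1 siRNA.

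**Figure D4:**
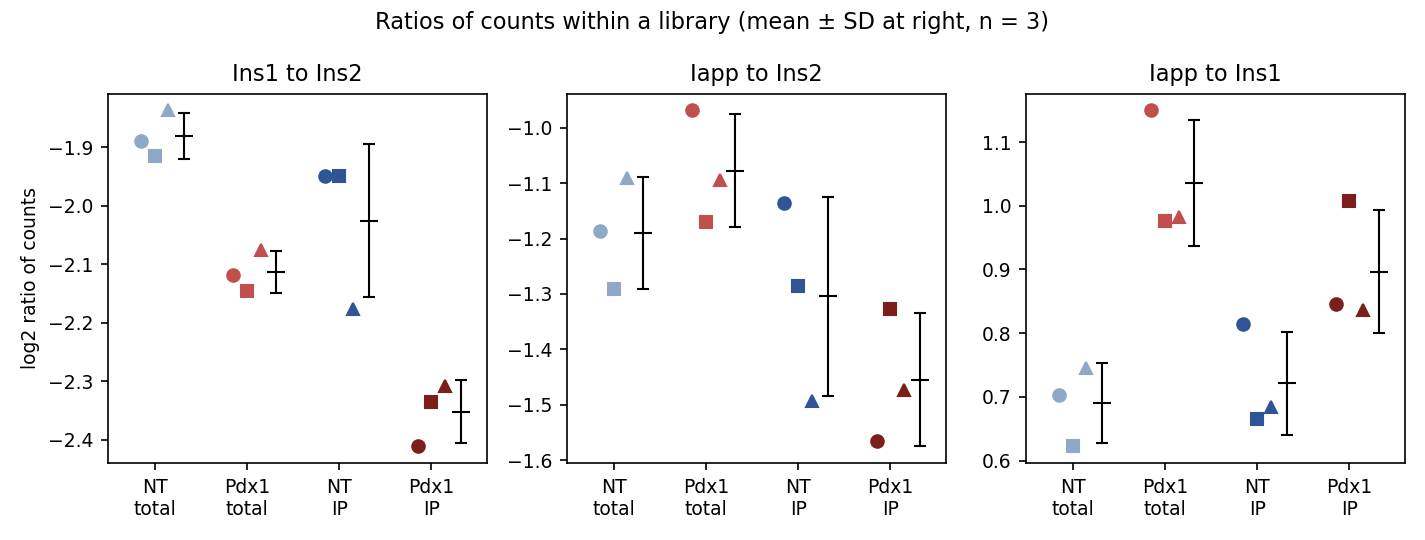
Log2 ratios of counts within each library (axes do not start at 0) for Ins1 to Ins2, Iapp to Ins2 and Iapp to Ins1; symbols are replicates 1 to 3 and bars give mean ± SD (n = 3). Ins1 to Ins2 is lower with Pdx1 siRNA in both fractions, from −1.88 to −2.11 in total RNA and from −2.03 to −2.35 in IP RNA.

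A ratio of counts within a library does not depend on scaling, and by this measure Ins1 was lower against both other genes with Pdx1 siRNA. The log2 ratio of Ins1 to Ins2 was −1.89, −1.91 and −1.84 in NT total and −2.12, −2.15 and −2.08 in Pdx1 total. In IP RNA it was −1.95, −1.95 and −2.18 with NT siRNA, against −2.41, −2.34 and −2.31 with Pdx1 siRNA. The siRNA groups were separate in both fractions, and so were IP and total RNA under either siRNA. Put plainly, Ins2 had 3.57 to 3.77 counts per Ins1 count in NT total and 4.22 to 4.43 in Pdx1 total. In IP RNA it had 3.86 to 4.52 with NT siRNA, against 4.96 to 5.32 with Pdx1 siRNA. With Pdx1 siRNA the ratio was lower by a log2 difference of −0.23 in total RNA and −0.33 in IP RNA. IP minus total was −0.15 with NT siRNA, against −0.24 with Pdx1 siRNA. Each of these 4 differences gave p = 0.1 in the exact permutation test, the smallest it can give. Among all genes, 55.0% in total RNA and 40.0% in IP RNA had counts relative to Ins2 that did not overlap between the siRNAs. The share that separates relative to Ins2 between IP and total RNA was not counted.

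NT IP replicate 3 bears on the IP value. It shares the low Rpl32l count with the Pdx1 IP libraries, and its Ins1 to Ins2 ratio of −2.18 lies between those of the other NT IP libraries and of Pdx1 IP. Against that library alone, the Pdx1 IP mean differed by −0.17, and without it the difference was −0.40. IP minus total with NT siRNA was −0.07 without NT IP replicate 3. With Pdx1 siRNA, every IP library and no total library has the low Rpl32l count, so fraction and split cannot be told apart. Whether read assignment in the stretches that the insulin mRNAs share differed between libraries on either side of the split was not tested.

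Iapp was higher relative to Ins1 with Pdx1 siRNA. Their log2 ratio was 0.70, 0.62 and 0.75 in NT total and 1.15, 0.98 and 0.98 in Pdx1 total, without overlap and 0.35 higher with Pdx1 siRNA. In IP RNA it was 0.81, 0.67 and 0.68 with NT siRNA, against 0.85, 1.01 and 0.84 with Pdx1 siRNA, separate by a narrow margin and 0.18 higher. Both differences gave an exact permutation p = 0.1. The share of all genes that separate relative to Ins1 was not counted, so these separations are not set against a background. Between IP and total RNA this ratio overlapped under either siRNA. For Iapp to Ins2, the siRNA groups overlapped in total RNA (difference 0.11) and in IP RNA (difference −0.15), each with an exact permutation p = 0.3. In cells with Pdx1 siRNA this ratio was −0.97, −1.17 and −1.09 in total RNA and −1.57, −1.33 and −1.47 in IP RNA. Those libraries did not overlap, and Iapp stood 0.38 lower against Ins2 in captured RNA on the log2 scale (exact permutation p = 0.1). Every Pdx1 IP library and no Pdx1 total library has the low Rpl32l count, so fraction and split cannot be told apart here. With NT siRNA the ratio of Iapp to Ins2 overlapped between fractions (difference −0.11, exact permutation p = 0.5). In NT IP it was −1.14, −1.28 and −1.49, the last in replicate 3 with the low Rpl32l count. Against that replicate alone, the Pdx1 IP mean differed by 0.04. In all, 12 comparisons of ratios were made, and after adjustment over them none could pass, since 0.1 is the floor.

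Per transcript length, the order of levels was Ins2, Iapp, Ins1 in every group. In NT total, Ins2 was at 113111 ± 5096 CPM per kb, Iapp at 39397 ± 3410 and Ins1 at 28226 ± 1426 (SD, n = 3). In Pdx1 IP the levels per kb were 242723 ± 30246, 69936 ± 4765 and 43667 ± 5476. The gaps exceed the spread in both groups. The Ins2 transcript used here has 552 bases and keeps an intron in its 5' part. For the annotated form with 3 exons and 478 bases, the NT total level would be 130546 ± 5879 CPM per kb, which leaves the order the same. The 3 deposited Ins2 transcripts differed by at most 0.0623% in count, so their reads are nearly all shared. Across groups, the level of Ins1 ran from NT IP through Pdx1 IP and NT total down to Pdx1 total, with no overlap between neighbours. For Ins2 the IP groups overlapped each other, and for Iapp neither the IP groups nor the total groups could be told apart beyond their spread.

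Across the 12 libraries the levels of the 3 genes were closely related, with Pearson's r of log2 CPM of 0.954 for Ins1 and Ins2, 0.955 for Ins1 and Iapp, and 0.973 for Ins2 and Iapp. The libraries fall into IP and total clusters, and these values follow that split, so they are a description with no test. Among 9925 genes averaging 5 CPM or more, the most similar to Ins1 were Tmed1 (r = 0.995), Ebp (0.994) and Cyc1 (0.993). For Ins2 they were Tmem14c (0.995), Ifi27 (0.994) and Ndufs8 (0.994), and for Iapp Sdhd (0.994), Dnajb11 (0.992) and Zdhhc16 (0.991). With Pdx1 siRNA, Tmed1 was at −0.34 in total RNA and −0.20 in IP RNA, Tmem14c at −0.09 and 0.04, and Sdhd at −0.04 and −0.05. These genes were picked by correlation over the same 12 libraries, so values near those of the hormone genes follow in part from the choice.

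**Figure D5:**
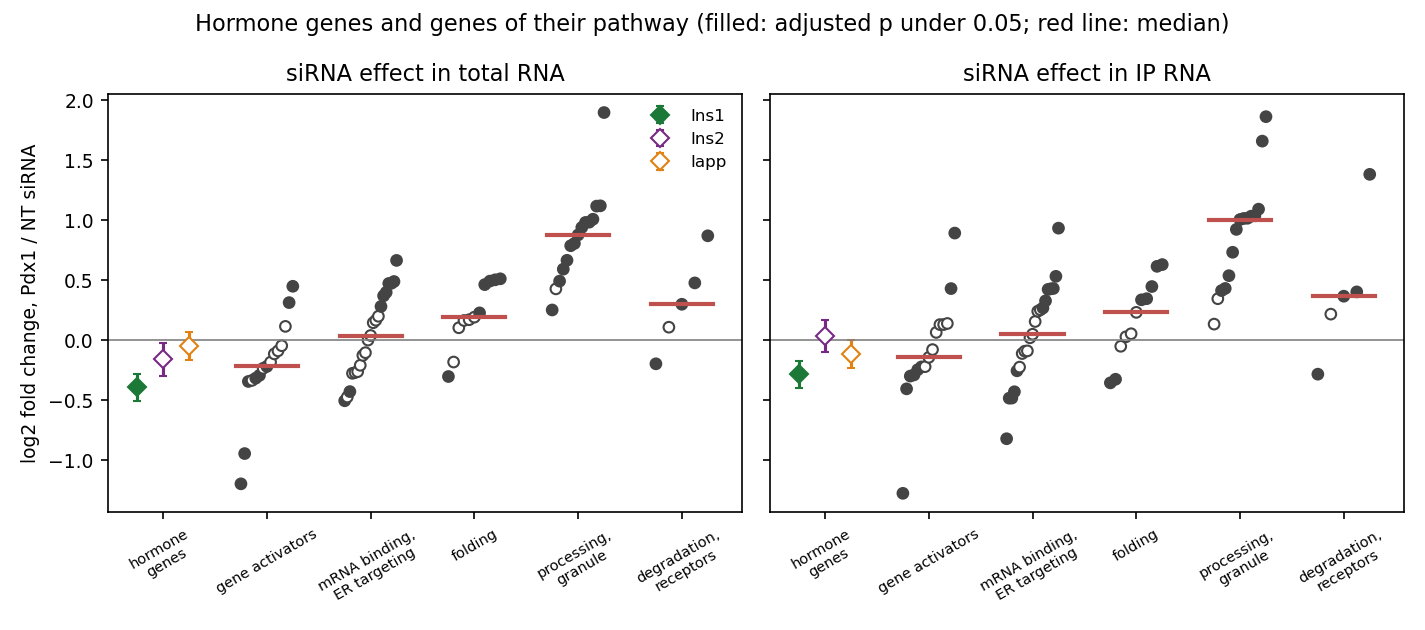
Log2 fold change between Pdx1 and NT siRNA in total RNA (left) and IP RNA (right) for the hormone genes (diamonds, ± SE) and the measured genes of 5 lists (circles); filled symbols have an adjusted p under 0.05 and red lines are list medians. The processing and granule genes lie above 0 in both fractions (medians 0.88 and 1.01), while the hormone genes lie between −0.39 and 0.04.

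The genes that act on the hormones from promoter to granule were read beside them, list by list. Of 15 activators and cofactors of the insulin genes, 2 rose and 6 fell in total RNA (median −0.22), and again 2 rose and 6 fell in IP RNA (median −0.14), against all-gene medians of −0.04 and −0.01. The 6 that fell include Pdx1, the siRNA target. The called share was 53.3% in each fraction, near the 53.0% and 59.7% of all genes. Mafa, a basic leucine zipper activator of insulin genes, fell by 0.94 in total RNA (SE 0.13, adjusted p = 3.2e-05) and by 0.40 in IP RNA (SE 0.14, adjusted p = 0.0193). Leaving out NT IP replicate 2 or Pdx1 IP replicate 2 lost the IP call (adjusted p = 0.063 and 0.0944). Pax6, a paired-box factor, fell by 0.29 in each fraction. With a term for the split at Rpl32l, against NT IP replicate 3 alone, Pax6 in IP RNA was at −0.19. Isl1, a LIM-homeodomain factor, rose by 0.45 and 0.43, and Nkx2-2, another homeodomain factor, rose by 0.31 and 0.89. Both kept a positive sign under library-total scaling, but the calls of Isl1 in both fractions and of Nkx2-2 in total RNA were lost. Tcf3, the E-box partner of Neurod1, fell by 0.34 in total RNA and was at −0.14 in IP RNA. Nkx2-2 was the only list member of the 5 lists called for the difference between fractions.

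For mRNA binding and targeting to the endoplasmic reticulum, 7 of 21 genes rose and 2 fell in total RNA (median 0.04), and 7 rose and 5 fell in IP RNA (median 0.05). The called shares, 42.9% and 57.1%, were below those of all genes. Ptbp1, which binds insulin mRNA, fell by 0.50 in total RNA (adjusted p = 8.1e-05) and by 0.82 in IP RNA (adjusted p = 5.2e-07). Ssr4, a subunit of the translocon-associated protein complex, rose by 0.67 and 0.94. Its partners Ssr1 and Ssr3 rose by 0.47 and 0.49 in total RNA and by 0.53 and 0.42 in IP RNA. Sec62, a translocation factor for short secretory precursors, rose by 0.48 and 0.43. Under library-total scaling, Sec62 (0.12, adjusted p = 0.121) and Ssr3 (0.11, adjusted p = 0.212) lost their IP calls. Of 11 measured folding genes, 5 rose and 1 fell in total RNA (median 0.19), and 5 rose and 2 fell in IP RNA (median 0.23). The called shares were 54.5% and 63.6%, near the background. P4hb, a protein disulfide isomerase, rose by 0.51 and 0.45, and the co-chaperone Dnajc3 by 0.50 and 0.62. Pdia3, another disulfide isomerase, rose by 0.49 and 0.35. Under library-total scaling the IP calls of P4hb (0.13, adjusted p = 0.0861) and Pdia3 (0.04, adjusted p = 0.632) were lost. Hspa5, the main Hsp70 chaperone of the endoplasmic reticulum, rose by 0.46 in total RNA and was at 0.23 in IP RNA (adjusted p = 0.0613). Its cofactor Sdf2l1 was at 0.17 in total RNA (adjusted p = 0.127) and rose by 0.63 in IP RNA. With DESeq2, Hspa5 in IP RNA (adjusted p = 0.0166) and Sdf2l1 in total RNA (adjusted p = 0.0437) were called. Prdx4, a peroxiredoxin that takes part in disulfide formation, was at 0.19 in total RNA (adjusted p = 0.0982) and rose by 0.34 in IP RNA. With DESeq2 it was called in total RNA as well (adjusted p = 0.0303). The IP call of Prdx4 was lost under library-total scaling (0.02, adjusted p = 0.769). With the term for the split, against NT IP replicate 3 alone, Prdx4 in IP RNA was at 0.32.

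Prohormone processing and granule genes moved in the direction opposite to Ins1. In total RNA 14 of 15 rose and none fell (median 0.88), and in IP RNA 13 rose and none fell (median 1.01), while 23.8% and 29.2% of all genes rose. The convertases Pcsk1 and Pcsk2, which cut proinsulin and proamylin, rose by 0.59 and 0.98 in total RNA and by 0.54 and 1.02 in IP RNA. Cpe, the carboxypeptidase that trims the cut ends, rose by 0.79 and 0.73, and Pam, which amidates the end of amylin, by 1.12 and 1.01. Scg5, the chaperone of Pcsk2, rose by 1.12 and 1.09, and Pcsk1n, an inhibitor of Pcsk1, by 0.88 and 1.86. Chgb, a granin of the granule core, was at 7828, 8583 and 7827 CPM in NT total and at 24605, 30936 and 34836 CPM in Pdx1 total. That is a log2 rise of 1.90 (SE 0.13, adjusted p = 1.5e-08), with 1.66 in IP RNA. Ptprn2, a granule membrane protein, rose by 1.01 and 1.04. Slc30a8, the zinc transporter that loads granules for insulin crystals, rose by 0.25 in total RNA and was at 0.14 in IP RNA (adjusted p = 0.209). The alpha cell marker sum rose beside these genes in the values given above, and its part in them was not tested. Under library-total scaling, 13 of these 15 genes still rose in total RNA and none fell, and 11 rose and 1 fell in IP RNA. The folding list turned in sign there, with medians of −0.08 in both fractions, and so did the targeting list, with medians of −0.23 and −0.26, above the all-gene median of −0.32.

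Of 5 measured genes for insulin degradation and hormone receptors, 3 rose and 1 fell in each fraction, with medians of 0.30 and 0.37. The 4 called genes are 80.0% of the list, beside 53.0% and 59.7% of all genes, on a list of only 5. Under library-total scaling none rose and 1 fell in total RNA, and 1 rose and 1 fell in IP RNA. The insulin-degrading enzyme Ide fell by 0.20 in total RNA (adjusted p = 0.0209) and by 0.28 in IP RNA (adjusted p = 0.00239), and leaving out a single library lost the call in total RNA for 5 of the 12 libraries. The insulin receptor Insr rose by 0.30 in total RNA (adjusted p = 0.0158), but not without Pdx1 total replicate 3 (0.22, adjusted p = 0.0828) or under library-total scaling (0.02, adjusted p = 0.847), and was at 0.22 in IP RNA (adjusted p = 0.0683). Igf1r, a receptor of the same family, rose by 0.48 and 0.37, but under library-total scaling it was at 0.20 (adjusted p = 0.0707) and 0.05 (adjusted p = 0.625). Ramp1, a subunit of amylin receptors, was scarce, at 0.724 ± 0.225 CPM in NT total and 1.34 ± 0.27 CPM in Pdx1 total. It rose by 0.87 in total RNA, a call lost under library-total scaling (adjusted p = 0.0527), and by 1.38 in IP RNA. Its relative Ramp2 was at 0.11 in total RNA (adjusted p = 0.345) and rose in IP RNA by 0.40, against 0.09 (adjusted p = 0.355) under library-total scaling. Calcr, the core of the amylin receptor, and Ramp3 are not analysed here.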

How the data were processed

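The authors deposited a table of raw counts for each library, with RefSeq transcripts as rows and no normalization. The submitters' processing notes name TopHat2, featureCounts and mm10 but give no version. Strand use is not given in the sources used here, nor is the treatment of reads with several matches. Of 17133 transcripts, 16838 matched a symbol in a RefSeq table of GRCm38.p6. The other 295 held at most 0.834% of a library's counts and were left out. Row totals began at 141 counts, and the largest values carry 6 significant digits. Where a gene had several transcripts, the one with the highest total stood for it.

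A quasi-likelihood model in edgeR 4.0.16 (R 4.3.3) was fitted to all 12 libraries, with a mean per group, TMM scaling and the default filter, which removed no gene. P-values were adjusted by Benjamini-Hochberg over all 12643 genes, with calls at an adjusted p under 0.05. Standard errors were the fold change on the log2 scale over the root of F. Shares and ratios were compared by exact permutation tests over libraries (SciPy 1.17.1). The fits were also run on simulated counts in which few genes changed, so that run does not test the scaling where many genes change. The rule for named genes took the 3 members, Pdx1, up to 4 genes per list and siRNA contrast with the smallest p among those called, and the 3 genes most correlated with each member. Pcsk1, Pcsk2, Cpe and Slc30a8 were added after their values were seen, as were Ttr, Chga and Rpl32l. The members and lists were chosen with earlier results of these data known. In the folding list, 2 of 13 symbols are older names of measured genes.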

Additional observations from a re-analysis of the deposited data

How the results depend on the processing

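With no scaling beyond the library total, calls were gained by Ins2 (−0.43, adjusted p = 0.00012) and Iapp (−0.32, adjusted p = 0.0022) in total RNA and by Iapp in IP RNA (−0.43), and Ins2 in IP RNA reversed to −0.28. Named genes that reversed there were Sdf2l1 (−0.10), Prdx4 (−0.085) and Ramp2 (−0.17) in total RNA and Hspa5 (−0.081) and Insr (−0.10) in IP RNA. Under library-total scaling the median gene was at −0.32 in both fractions, against −0.04 in total RNA and −0.01 in IP RNA under TMM. Which scaling is nearer to the RNA content of the cells was not tested. Upper-quartile scaling put Iapp in total RNA at 0.0034, a reversed sign (adjusted p = 0.983). A term for the split at Rpl32l leaves NT IP replicate 3 as the only NT IP library set against Pdx1 IP. It put Ins1 in IP RNA at −0.34. Ins2 in IP RNA was then at −0.16 and the Ins2 difference between fractions at −0.0027, both reversed. With only the IP libraries fitted, Ins1 in IP RNA was −0.29 (adjusted p = 0.0993). The cause was not tested. Relative to all other genes, share ratios moved to 1.71 (Ins1, NT IP over total), 1.76 (Ins1, Pdx1 IP over total), 1.74 (Iapp, NT IP over total) and 0.702 (Iapp, siRNA in IP RNA), because the denominator drops the hormone genes.

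Calls for the difference between fractions moved from 29 (22 higher, 7 lower) to 42 (22 and 20) with RLE scaling, 52 (24 and 28) with upper-quartile scaling, 11 (8 and 3) with library totals, 327 (142 and 185) with DESeq2 and 5 with the term for the split; none of these fits called a hormone gene. Same-numbered libraries of different groups correlated in their deviations from the group means at r = −0.10 to 0.51. Some libraries correlated best with their own number and others did not, so the numbers were not taken as pairs. Whether IP and total RNA of 1 number came from the same cells is not known here, and the main fits treat all libraries as independent. With the replicate block, 373 genes were called for that difference, 7231 in total RNA and 7926 in IP RNA.

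Leaving out 1 library at a time gave −0.42 to −0.32 for Ins1 in total RNA and −0.37 to −0.19 in IP RNA, −0.11 to 0.028 for Iapp in total RNA, −0.025 to 0.15 for Ins2 in IP RNA, and −0.0057 to 0.20 for the Ins1 difference between fractions. The log2 ratio of Iapp to Ins1, NT IP minus NT total, was −0.015 to 0.059. Calls for the difference between fractions numbered 4 to 571, the highest without NT IP replicate 3. The Pdx1 difference between fractions ran from −0.20 to 0.015, positive only without Pdx1 total replicate 2. Igf1r in IP RNA lost its call without Pdx1 IP replicate 3 (0.25, adjusted p = 0.0744). All 12 values of IP against total RNA for each hormone gene stayed called. With 3 libraries a group, exact tests of single values cannot go below p = 0.1.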
